A study of Mus musculus with 6 samples.

Results

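Translation factors are the proteins that start, elongate and end protein synthesis on the ribosome. The set described here held the genes whose symbol begins with Eif or Eef and a digit, without the eIF2 kinases, together with the release factor genes Etf1 and Gspt1, the poly(A)-binding protein gene Pabpc1 and the eIF4A inhibitor gene Pdcd4. Members were chosen by symbol among probe sets with a single gene symbol, with earlier results of these data known. This gave 61 of the 19943 genes tested, read by 71 probe sets. Pabpc4, also sought by the rule, had 4 probe sets that each carried a further symbol and was not analysed here. The same held for Eif3j1, Eif3j2 and Eif4ebp3. Eif1, Eif2s1, Eif3g, Eif4g1 and Eef1g were not analysed here either.

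RNA was taken from mouse natural killer (NK) cells, cytotoxic lymphocytes of the innate immune system, and read on 6 arrays, with 3 independent preparations in each group. Per the labels, the IL-18 generated group came from NK1.1 isolated cells cultured overnight with 2 cytokines, IL-18 (25 ng/ml) and IL-2 (300 IU). Both groups were sorted on NK1.1 and against CD3. The gate differed in the other markers: IL-18 generated cells had c-kit and lacked CD11b, and unstimulated cells had CD11b and lacked c-kit. The cytokines, the culture and the gate therefore cannot be told apart. The sources used here do not give the strain, age or pooling of the mice, or whether unstimulated cells were cultured or received IL-2. Every value below is a log2 value set against the probe set's own median across the 6 arrays, so differences between groups can be read but expression levels cannot, and a gene near 0 in all arrays may be undetected. The log base is taken as 2 but was not settled by the files: natural logarithms would leave the adjusted p-values as they are and make every fold larger. For a gene with 1 probe set whose groups do not overlap, this centring makes the nearest arrays of the 2 groups mirror images around 0. Changes are given as IL-18 generated minus unstimulated, with n = 3 arrays per group. The ± is the limma standard error, whose variance draws in part on all genes tested. The p-values take in no spread beyond that between these preparations.

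In a cell that starts to grow, initiation is the step at which protein synthesis is mostly set. The factor eIF2 brings the initiator tRNA to the small ribosomal subunit and must be recharged with GTP by eIF2B after each round. The complex eIF4F, made of the cap-binding protein eIF4E, the helicase eIF4A and the scaffold eIF4G, loads mRNA, and 4E-BP proteins block it by holding eIF4E. The large complex eIF3 joins both sides, the elongation factors eEF1 and eEF2 then drive the ribosome along the mRNA, and eRF1 and eRF3 release the finished chain.

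Most of these genes were higher in the IL-18 generated cells. Of the 61 members, 38 rose (62.3%), 2 fell and 21 missed a limma adjusted p of 0.05 over all genes. Among all 19943 genes tested, 19.7% were higher and 16.7% lower by the same rule, 36.4% in all. The set was chosen with earlier results of these data known, and the bearing of that choice on these shares was not tested. The median log2 change was 0.48 over the members and -0.06 over all genes. The increases were mostly below 2-fold, with 9 changes between 0.2 and 0.5, 21 between 0.5 and 1 and 8 of at least 1. At least 2-fold, 8 members were higher and 1 lower, beside 3.62% and 3.24% of all genes. The 2 groups of arrays were fully separate for 43 members on the higher side and 6 on the lower side, beside 22.9% and 25.7% of all genes. None of the 40 members that passed had overlapping groups, but the call was made on the same values, so this adds no support. Within a group the median SD was 0.068 over the IL-18 arrays and 0.078 over the unstimulated arrays. The mean of all 61 members lay between 0.2 and 0.25 in the IL-18 arrays and between -0.27 and -0.17 in the unstimulated arrays.

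**Figure D1:**
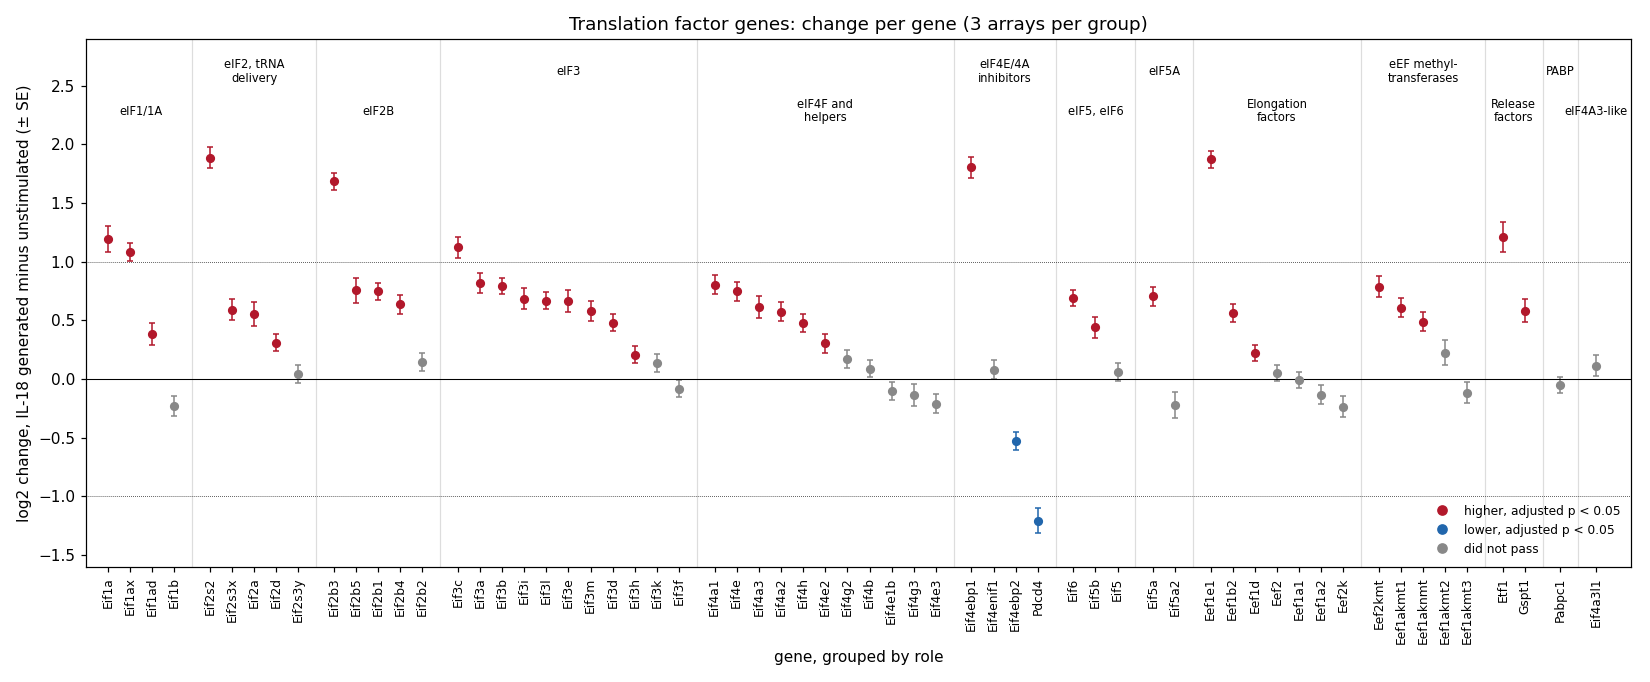
Log2 change (IL-18 generated minus unstimulated, vertical axis, ± SE) of each of the 61 genes, grouped by role along the horizontal axis; dotted lines mark a 2-fold change. Red points passed as higher, blue points as lower and grey points did not pass; 38 are red, and the 2 blue points, Eif4ebp2 and Pdcd4, are inhibitors of initiation.

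Markers of other cells moved with the groups in the same arrays, where 19.7% of all genes tested were higher and 16.7% lower. All 7 measured monocyte and macrophage markers fell, one of them Itgam, which encodes the CD11b used in the gate, with a list mean of -1.95 to -1.87 in the IL-18 arrays against 1.83 to 2.32 in the unstimulated ones. All 8 neutrophil markers fell as well, from 1.35 to 2.86 in the unstimulated arrays to between -1.54 and -1.17, and so did 6 of 7 B cell markers. Of 7 T cell markers, the CD3 chain genes Cd3d, Cd3e and Cd3g rose and the other 4 did not pass. The 8 NK cell markers, among them Ncr1 and Klrk1, all fell, with a median of -0.92, and since levels cannot be read their presence in either group cannot be checked. The part of these shifts in the changes of the translation factors was not tested. In sorted bulk RNA, fewer cells of a type and less RNA per cell cannot be told apart.

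Of 5 measured genes of eIF2 and initiator tRNA delivery, 4 rose and 1 did not pass, and the largest increase of all members was among them. The counts here and in the roles below stand beside 19.7% of all genes tested higher and 16.7% lower. Eif2s2, which encodes the beta subunit of eIF2, stood at 0.84, 0.84 and 0.93 in the IL-18 arrays and at -1.15, -0.84 and -1.08 in the unstimulated arrays. The groups were far apart, and the change was 1.89 ± 0.09 or 3.70-fold (limma adjusted p 1.83e-07). Both probe sets of Eif2s2 gave it, with 1.75 and 2.03. Eif2s3x, the X-linked gene of the gamma subunit, rose by 0.59 ± 0.09. Its Y-linked copy Eif2s3y lay at -0.02, -0.01 and 0.12 against 0.01, -0.07 and 0.02, with overlapping groups and a change of 0.05 ± 0.08 that did not pass; the sex of the mice is not given here, and Eif2s3y may be undetected. Eif2a, an initiator tRNA carrier distinct from eIF2, rose by 0.56 ± 0.10, and Eif2d, a factor of reinitiation, by 0.31 ± 0.07.

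All 5 subunits of eIF2B, the exchange factor that recharges eIF2, were measured; 4 rose and 1 did not pass. Eif2b3, the gamma subunit, stood at 0.81, 0.80 and 0.90 in the IL-18 arrays against -0.85, -0.90 and -0.80, which is a change of 1.69 ± 0.07 or 3.22-fold (limma adjusted p 9.2e-08). Its partner in the catalytic subcomplex, the epsilon subunit Eif2b5, rose by 0.76 ± 0.11. Among the regulatory subunits, Eif2b1 rose by 0.75 ± 0.07 and Eif2b4 by 0.64 ± 0.08. Eif2b2 had 0.07, 0.02 and 0.14 against -0.11, -0.02 and -0.08, and although the groups did not overlap, its change of 0.14 ± 0.07 did not pass (limma adjusted p 0.16). Subunits of the same complex thus had changes between 0.14 and 1.69.

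Of 4 measured genes of the eIF1 and eIF1A family, which keep the scanning ribosome open until the start codon is met, 3 rose. Eif1a was at 0.67, 0.45 and 0.68 against -0.83, -0.45 and -0.50, a change of 1.19 ± 0.11. Eif1ax stood at 0.56, 0.63 and 0.46 against -0.58, -0.46 and -0.55, a change of 1.08 ± 0.08. Both encode eIF1A and are near-identical copies, and how their probes divide the signal is uncertain. Eif1ad, a related gene, rose by 0.38 ± 0.10. Eif1b, a copy of eIF1, lay at -0.10, -0.09 and -0.04 against 0.12, 0.30 and 0.04, with separate groups and a change of -0.23 ± 0.08 that did not pass (limma adjusted p 0.0568).

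Of 11 measured eIF3 subunits, 9 rose and 2 did not pass; the median change was 0.67. Eif3c had the largest increase, 1.12 ± 0.09 or 2.18-fold, with 0.66, 0.46 and 0.67 in the IL-18 arrays against -0.61, -0.46 and -0.51. Eif3a, the largest subunit and the scaffold of the complex, rose by 0.82 ± 0.09 and Eif3b by 0.79 ± 0.07. The others that rose, by 0.48 to 0.69, were Eif3i, Eif3l, Eif3e, Eif3m and the cap-contacting subunit Eif3d, with Eif3h lower at 0.21 ± 0.07. The call of Eif3h was narrow (limma adjusted p 0.0475) and ended without any one of the 6 arrays, at adjusted p of 0.0625 to 0.134. Eif3f stood at -0.04, 0.00 and -0.10 against -0.00, 0.07 and 0.05, with a change of -0.08 ± 0.07 and a 95% interval of -0.24 to 0.08, and did not pass. Eif3k, at 0.13 ± 0.08, did not pass either.

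In the group of eIF4F genes, their helpers and relatives, 6 of 11 genes rose and 5 did not pass. The 6 include the relatives Eif4a3 and Eif4e2, which are not parts of eIF4F as described above, and Eif4e, whose 3 probe sets disagreed. Eif4a1, the main helicase, lay at 0.34, 0.34 and 0.46 against -0.51, -0.35 and -0.41, a change of 0.81 ± 0.08 that its 3 probe sets shared at 0.77 to 0.87. Its paralog Eif4a2 rose by 0.57 ± 0.08, and Eif4a3, the related helicase of the exon junction complex, by 0.61 ± 0.09. The gene listed as Eif4a3l1, a copy of Eif4a3 by its name, whose reading is uncertain for that reason, had -0.09, 0.12 and 0.10 against -0.01, 0.01 and -0.21 and did not pass. Eif4h, which stimulates the helicase, rose by 0.48 ± 0.08, whereas the other stimulator Eif4b, at 0.09 ± 0.07, did not pass. Of the scaffold genes, Eif4g2 (0.17 ± 0.08) and Eif4g3 (-0.14 ± 0.10) did not pass.

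Eif4e, the cap-binding protein, was at 0.40, 0.32 and 0.26 in the IL-18 arrays and at -0.45, -0.32 and -0.49 in the unstimulated arrays. The groups were separate and the change was 0.75 ± 0.08 (limma adjusted p 3.6e-05). Its 3 probe sets disagreed, however, with changes of 1.12 and 1.04 for 2 of them and 0.09 for the other. The mean lies between these readings, and which of them holds for the gene is uncertain. When each probe set had to pass on its own, the call of Eif4e ended (limma adjusted p 0.576 for the weakest probe set). The cap-binding relative Eif4e2 rose by 0.30 ± 0.08. Eif4e3 lay at -0.06, -0.18 and -0.03 against 0.03, 0.21 and 0.12, and its change of -0.21 ± 0.08 did not pass (limma adjusted p 0.0708). Eif4e1b, at -0.11 ± 0.08, did not pass.

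The inhibitors of eIF4E and eIF4A moved in opposite directions. Eif4ebp1, which encodes 4E-BP1, stood at 1.05, 0.79 and 1.01 in the IL-18 arrays and at -0.85, -0.92 and -0.79 in the unstimulated arrays. It rose by 1.81 ± 0.09 or 3.50-fold (limma adjusted p 1.85e-07), the largest change of a translational inhibitor. Eif4ebp2, which encodes the related 4E-BP2, fell, with -0.28, -0.36 and -0.20 against 0.23, 0.30 and 0.20 and a change of -0.53 ± 0.08 (limma adjusted p 0.000297). Pdcd4, which binds and blocks eIF4A, fell most of all members, from 0.44, 0.83 and 0.80 in the unstimulated arrays to -0.47, -0.62 and -0.44. That is a change of -1.21 ± 0.11, or 2.31-fold lower (limma adjusted p 1.14e-05). Eif4enif1, which carries eIF4E into the nucleus, did not pass at 0.08 ± 0.08. Monocyte markers, which also fell in these arrays, had a median change of -4.38, and their part in the falls of Pdcd4 and Eif4ebp2 was not tested.

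**Figure D2:**
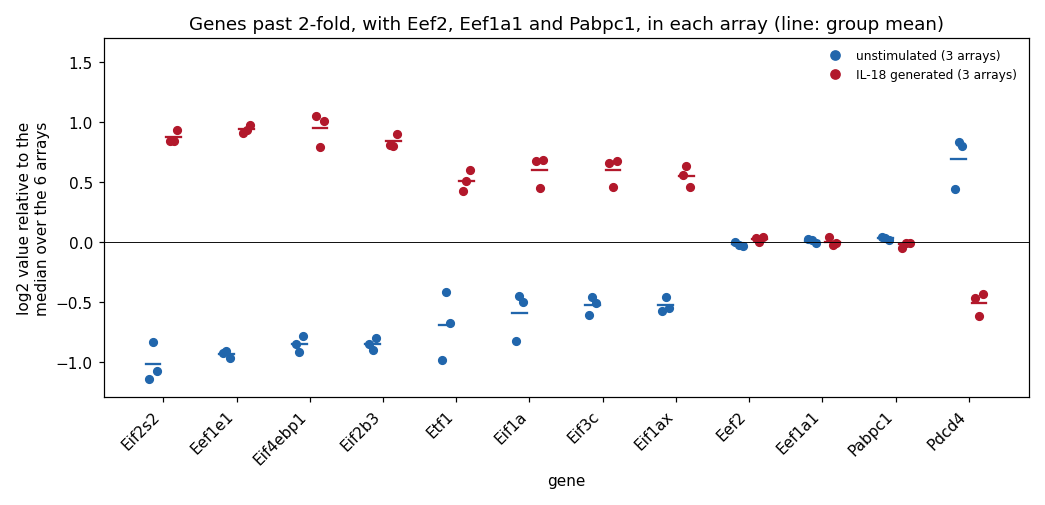
Log2 value relative to the median over the 6 arrays (vertical axis) in each array for the 9 genes past 2-fold and for Eef2, Eef1a1 and Pabpc1 (horizontal axis); points are arrays and short lines are group means. The 8 genes that rose at least 2-fold have all red (IL-18) points above all blue (unstimulated) points, Pdcd4 the reverse, and the remaining 3 genes lie between -0.05 and 0.04.

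Among the later initiation factors, Eif6, which keeps the large ribosomal subunit apart from the small one and takes part in its assembly, rose by 0.69 ± 0.07, with 0.39, 0.31 and 0.37 against -0.36, -0.31 and -0.33. Eif5b, the factor of subunit joining, rose by 0.44 ± 0.09. Eif5, which triggers GTP hydrolysis on eIF2, had -0.07, 0.08 and 0.08 against -0.03, -0.08 and 0.03, and its change of 0.06 ± 0.08 did not pass. Eif5a, whose hypusine-bearing product helps ribosomes through difficult peptide bonds, stood at 0.35, 0.27 and 0.48 against -0.42, -0.30 and -0.29 and rose by 0.70 ± 0.08. Its paralog Eif5a2 lay at 0.05, -0.13 and -0.32 against -0.03, 0.27 and 0.03, and the change of -0.22 ± 0.11 did not pass (limma adjusted p 0.151).

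Of 7 genes listed under elongation by symbol, 3 rose (42.9%) and 4 did not pass, where 19.7% of all genes tested were higher. The 3 include Eef1e1 and Eef1d, whose limits follow. The median change was 0.05. The gene that rose by far the most, Eef1e1, stood at 0.91, 0.93 and 0.97 against -0.93, -0.91 and -0.97, a change of 1.87 ± 0.07 or 3.66-fold (limma adjusted p 3.83e-08). Despite its symbol, its product is known as a part of the multi-tRNA synthetase complex and not as a carrier of tRNA to the ribosome. Of the exchange subunits of eEF1, Eef1b2 rose by 0.56 ± 0.07 and Eef1d by 0.22 ± 0.07. The call of Eef1d (limma adjusted p 0.0307) ended without IL-18 replicate 1, 2 or 3 or unstimulated replicate 3, at adjusted p of 0.0753 to 0.0933, and with the replicate number as a block (adjusted p 0.061).

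Eef1a1, which delivers aminoacyl-tRNA and is one of the most abundant proteins of the cell, had a change of -0.01 ± 0.07 with a 95% interval of -0.16 to 0.15. Eef2, the translocase, had 0.05 ± 0.07 with an interval of -0.10 to 0.20. Pabpc1, the cytoplasmic poly(A)-binding protein, lay at -0.05, -0.01 and -0.01 against 0.04, 0.03 and 0.01, with 95% bounds of -0.20 and 0.11 on its change. None of the 3 passed, and these intervals leave out a change of array signal of the size seen for Eif2s2, Eif2b3 or Eif4ebp1. How far their probes respond to a change in RNA was not tested. Eef1a1 has many processed pseudogenes, so its own reading is uncertain. Eef2k, the kinase that inhibits eEF2, was at -0.05, -0.23 and -0.01 against 0.12, 0.24 and 0.06, and its change of -0.24 ± 0.09 did not pass (limma adjusted p 0.0588). Eef1a2, a paralog known from muscle and brain, did not pass at -0.13 ± 0.08.

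Several of the genes with small changes encode mRNAs known to begin with a 5′ terminal oligopyrimidine tract, which places their translation under the kinase mTOR. In a list of 9 such members, Eef1a1, Eef1b2, Eef1d, Eef2, Eif3e, Eif3f, Eif3h, Eif4b and Pabpc1, 4 rose and 5 did not pass, with a median change of 0.09. The other 52 members had 34 increases, 2 decreases and a median of 0.56. This list was drawn up after the values were seen, so its lower median may follow from the choice of genes. Whether the tract goes with small changes was not tested.

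Enzymes that methylate elongation factors rose in 3 of 5 cases. Eef2kmt, which methylates eEF2, had 0.40, 0.29 and 0.51 against -0.29, -0.49 and -0.38 and rose by 0.79 ± 0.09. Eef1akmt1 rose by 0.61 ± 0.08 and Eef1aknmt by 0.49 ± 0.08, both acting on eEF1A. Eef1akmt3, at 0.04, -0.04 and -0.11 against 0.19, -0.06 and 0.10, and Eef1akmt2, at 0.23 ± 0.10, did not pass. Both release factor genes rose. Etf1 (eRF1), which reads stop codons, lay at 0.42, 0.51 and 0.60 against -0.99, -0.42 and -0.68, a change of 1.21 ± 0.13. Gspt1 (eRF3), its GTPase partner, had 0.16, 0.20 and 0.28 against -0.52, -0.16 and -0.43 and rose by 0.58 ± 0.10. In both genes unstimulated replicate 2 lay nearest the IL-18 arrays, as it did in 25 of the 38 members that rose. The matching share over all genes was not computed. This array had the lowest array weight, 0.46, and a neutrophil marker mean of 2.86, against 1.4 and 1.35 in unstimulated replicates 1 and 3.

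Paralogs were then compared within each array, where a shift common to the array cancels. Of 11 pairs listed, 7 were measured. With 3 arrays against 3 the exact two-sided permutation test cannot give a p below 0.1, so no pair could pass. The differences are given with their size, and here ± is the ordinary pooled standard error of the differences within arrays. The difference of Eif4ebp1 minus Eif4ebp2 was 1.33, 1.15 and 1.22 in the IL-18 arrays and -1.09, -1.22 and -1.0 in the unstimulated arrays, a shift of 2.33 ± 0.08. Eif4e shifted by 0.96 ± 0.08 against Eif4e3 and by 0.45 ± 0.07 against Eif4e2, both from the mean of its 3 disagreeing probe sets. Taken alone, 2 of these probe sets shifted by 0.82 and 0.73 against Eif4e2, and the other by -0.21 with overlapping groups. Against Eif4e3 they gave 1.33 and 1.25, and the other 0.30 with overlapping groups. Eif5a shifted by 0.93 ± 0.17 against Eif5a2 and Eif4a1 by 0.23 ± 0.04 against Eif4a2. Eif2s3x shifted by 0.54 ± 0.12 against Eif2s3y, which may only restate the change of Eif2s3x if Eif2s3y was undetected. In these 6 pairs the groups did not overlap (permutation test, exact p 0.1, adjusted p 0.117 over 7 pairs). Of all single genes tested, 22.9% were separate on the higher side and 25.7% on the lower side. The matching share for pairs of genes was not computed. Eif4e3 and Eif5a2 did not pass and may be undetected, so the shifts against them may only restate the changes of Eif4e and Eif5a. Eef1a1 minus Eef1a2 shifted by 0.12 ± 0.07 with overlapping groups (exact p 0.2, adjusted p 0.2).

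**Figure D3:**
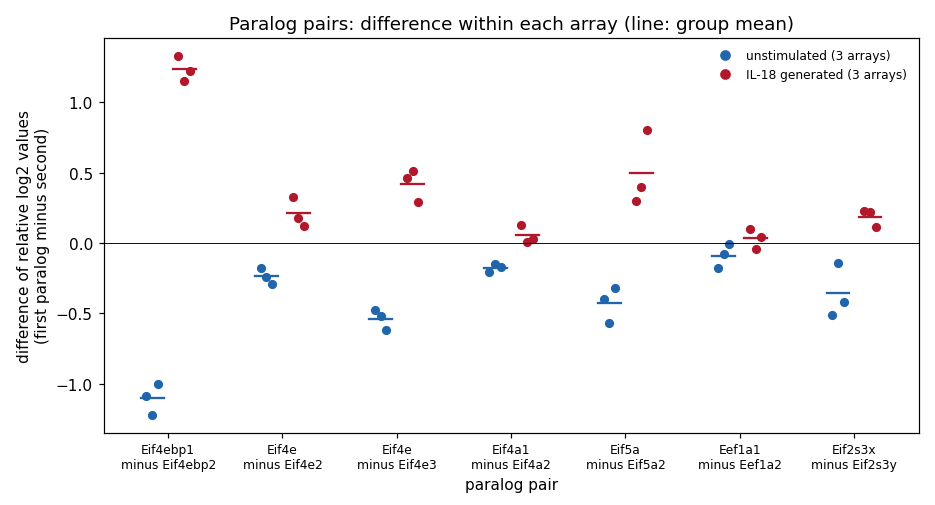
Difference of relative log2 values between paralogs (first minus second, vertical axis) in each array for 7 pairs (horizontal axis); points are arrays and short lines group means. Red (IL-18) and blue (unstimulated) points are apart in 6 pairs, most for Eif4ebp1 minus Eif4ebp2, and overlap for Eef1a1 minus Eef1a2.

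Genes around the factors were read from lists of the same pathway, which were also chosen with earlier results of these data known. Of 56 measured genes in 7 lists, 34 rose (60.7%), 3 fell (5.4%) and 19 did not pass. Of all genes tested, 19.7% were higher and 16.7% lower. The median change of the 56 genes was 0.32. Of 8 enzymes and partners that place hypusine on eIF5A or diphthamide on eEF2, 7 rose. Both hypusine enzymes did so, Dhps by 0.55 ± 0.09 and Dohh by 0.54 ± 0.09, beside the increase of Eif5a. Dph6, the ligase that completes diphthamide, rose by 1.49 ± 0.08. Of 9 genes of recycling, rescue and reinitiation, 6 rose and 0 fell (0 also at an unadjusted p below 0.05), led by the reinitiation factor Denr at 1.36 ± 0.10. The recycling ATPase Abce1, at 1.33 ± 0.11, rose beside Etf1 and Gspt1.

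The regulators upstream held increases and decreases. Of 9 genes of the mTORC1, S6 kinase and MNK branch, 4 rose (44.4%) and 2 fell (22.2%). Of all genes tested, 19.7% were higher and 16.7% lower, so 2 falls of 9 lie near the share of all genes. Larp1, which binds oligopyrimidine mRNAs, rose by 1.08 ± 0.08. The 2 that fell were the eIF4E kinases Mknk2 and Mknk1, with -0.43 ± 0.08 and -0.41 ± 0.09. Of 8 genes of the eIF2 kinases and the eIF2 phosphatase, 4 rose and 1 fell. Ppp1r15a, the inducible phosphatase subunit GADD34, rose by 0.74 ± 0.18 and the heme-regulated kinase gene Eif2ak1 fell with -0.27 ± 0.09. The call of Eif2ak1 (limma adjusted p 0.0346) ended in 7 of 14 alternatives, with array centring (0.0703), quantile normalization (0.0556) and without IL-18 replicate 1, 2 or 3 or unstimulated replicate 2 or 3 (0.0581 to 0.117). Of 10 mitochondrial translation factors, 6 rose and 0 fell, with a median of 0.36, and the ribosome recycling factor Mrrf rose by 1.35 ± 0.08. Of 7 genes of poly(A)-binding protein partners and scanning helicases, 4 rose and 0 fell, Ddx3x by 0.59 ± 0.10. Of 5 selenocysteine factors 3 rose and 0 fell, led by Trnau1ap at 0.88 ± 0.07. The mitochondrial gene Mtif3 had a change of -0.20 ± 0.07 and the partner gene Paip2 one of -0.23 ± 0.09, and neither passed (limma adjusted p 0.0531 and 0.0723) although both had an unadjusted p below 0.05. Some increases counted in the related lists were not firm either. The calls of Eif2ak4 and Eefsec ended in 6 of 14 alternatives and that of Rheb in 5. Those of Mtrf1, Pelo and Akt1s1 ended in 4, 3 and 1 of 14, and that of Ltn1 in 5 of 13.

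**Figure D4:**
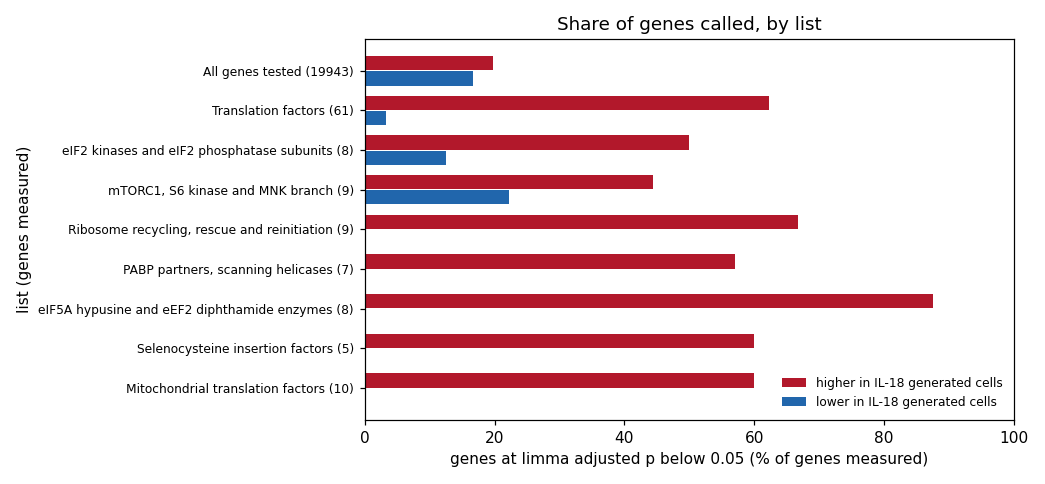
Percent of measured genes (horizontal axis) called higher (red) or lower (blue) at a limma adjusted p below 0.05 in all genes tested, in the translation factors and in 7 related lists (vertical axis, number of genes measured in brackets). The translation factors have 62.3% higher where all genes have 19.7%.

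The promoters of the members were searched for the E-box CACGTG, the site bound by MYC and related factors, because Eif4e is a textbook target of MYC. RefSeq windows (GRCm38.p6) of 300 bases, from 250 before to 50 after a gene's start, were found for 46 of the 61 members. CACGTG reads the same on both strands. It was present for 12 of the 46 members (26.1%), where 8.1% of all 27025 genes with a window and 9.5% of the 15617 tested genes with a window held it, while base composition was not matched. It was present for 6 of 28 members that rose (21.4%), 6 of 16 that did not pass (37.5%) and 0 of 2 that fell. The stretches below show the E-box in capitals, 5′ to 3′ on the gene's strand, for 3 genes that rose (Eif4e, Eif4a1 and Eif4h) and for 2 that did not pass (Eef2 and Eif3f). The pair of Eif4e stretches precedes the second of its annotated starts, inside the gene's span, at chr3:138527028-138527057 and chr3:138527192-138527221 on the plus strand. The others lie before the gene, at chr11:69672580-69672639 (Eif4a1, minus strand), chr5:134639473-134639532 (Eif4h, minus strand), chr10:81176561-81176620 (Eef2, plus strand) and chr7:108934320-108934379 (Eif3f, plus strand).
Eif4e, distal: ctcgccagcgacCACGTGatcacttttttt
Eif4e, proximal: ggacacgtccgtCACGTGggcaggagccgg
Eif4a1: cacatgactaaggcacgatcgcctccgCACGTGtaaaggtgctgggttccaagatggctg
Eif4h: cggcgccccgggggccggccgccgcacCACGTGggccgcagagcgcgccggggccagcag
Eef2: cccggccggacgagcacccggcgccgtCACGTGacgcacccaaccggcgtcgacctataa
Eif3f: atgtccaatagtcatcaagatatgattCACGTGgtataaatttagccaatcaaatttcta
A match is a run of letters and not a measured binding site.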

How the data were processed

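RNA of 6 NK cell preparations was labelled with biotin and hybridised to 1-colour Affymetrix arrays, per the labels' protocols. The authors deposited processed values for 28815 probe sets, which were treated as log2 expression. How they were summarized and normalized, and in which log base, the sources used here do not say. One probe set spans 7.77, more than log10 values of a 16-bit scanner could (4.82); log2 was assumed, and natural logarithms were not excluded. Each probe set had a median of 0 over the arrays, so no filter on dim genes was possible and no level is reported. Array medians ran from -0.025 to 0.039 and no further normalization was applied.

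Probe sets with 1 symbol in the platform annotation (21788) were averaged per gene. The 19943 genes were tested in R 4.3.3 by limma 3.58.1 (lmFit and eBayes on all 6 arrays, no covariate), with Benjamini-Hochberg adjustment over all genes. The procedure was tested on simulated arrays with the spread of the real genes. It called 38 of 67 genes given a log2 change of 0.5 (56.7%), 63 of 67 given 1 and 66 of 66 given 2. Of its 175 calls, 8 were false. Far fewer genes were changed there than the 7267 called in the data, so these shares need not hold for the data. Genes given in full follow a rule: the largest increase and the largest decrease (or smallest increase) in each role, all members of roles with fewer than 3, Etf1, Gspt1, Pabpc1, Pabpc4 (not analysed here), Pdcd4, Eif4ebp1 and Eif4e, and members past 2-fold. Values per array or intervals of Eif4ebp2, Eef1a1, Eef2 and, for its interval, Eif3f were added after they were seen. In the related lists the largest passing increase and decrease are named, with Abce1, Dhps, Dohh, Mknk1, Mtif3 and Paip2 added. Members and lists were chosen with earlier results of these data known. Alternatives covered variance options, quantile normalization, array centring, array weights, probe sets as features, genes with 1 probe set, a block on the replicate number, and each array left out in turn. The number of arrays limits the precision.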

Additional observations from a re-analysis of the deposited data

How the results depend on the processing

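Results were recomputed under 14 alternatives. Of the 40 members that passed, 37 kept call and direction in every alternative in which they were measured; the exceptions are Eif3h, Eef1d and Eif4e, given above. The count of members that rose was 33 to 39 (33 of 53 with only genes of 1 probe set), and the count past 2-fold 8 or 9. Of the related genes, 28 to 35 rose and 2 to 4 fell. With the replicate number as a block, 36 rose and 2 fell. Same-numbered arrays correlated at 0.238, 0.007 and -0.02 in their deviations, and of the IL-18 arrays only array 1 correlated best with its own number, so the numbers were not taken as pairs; beside Eef1d the block ended the call of Eif3h (adjusted p 0.0788). Of the members that did not pass, Eef2k and Eif4g2 passed with array weights (limma adjusted p 0.0496 and 0.049), Eef1akmt2 and Eif4g2 without unstimulated replicate 2 (0.0498 and 0.0356) and Eif1b without unstimulated replicate 3 (0.0371); Eif3h lost its call with array weights (0.0504). The sign of Eef1a1 turned with array centring (0.0251), quantile normalization (0.0215) and without IL-18 replicate 2 (-0.0265 to 0.00781 over single arrays left out), and that of Eif2s3y without IL-18 replicate 3 (-0.000167 to 0.0722); neither passed anywhere. With only genes of 1 probe set, 2 of 3 paralog pairs remaining had separate groups, because pairs with Eif4e, Eif4a1 and Eif5a fell out. Leaving out single arrays gave 6 to 7 separate pairs. With single Eif4e probe sets, an alternative chosen after seeing the data, Eif4e minus Eif4e2 was 0.817, 0.732 and, reversed, -0.211.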
